A study of Mus musculus with 17 samples.

Results

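WT1 binding in purified mouse podocytes 9 days after adriamycin was compared, site by site, with binding in podocytes of vehicle animals. The members were all peaks of the 2 podocyte lists concerned, 31949 at day 9 and 23402 in vehicle, which together made 55351 of the 107761 peaks in the 5 lists of the series. A day 9 peak and a vehicle peak were matched when they overlapped by at least 1 bp. Matched peaks were compared in width, in rank within their own list and in the position of the summit, the base where the pileup is highest. A day 9 peak without a match was placed by its distance to the nearest vehicle peak, which separates a site beside an old one from a locus of its own. Sites without a match are called unmatched, which says that the other list held no peak there, not that WT1 was absent. In peaks called over many cells, fewer bound cells and weaker binding in each cell cannot be told apart.

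Both groups came from mice of 1 reporter strain, mTmG in the sample titles, labelled wildtype and aged 7-8 weeks, in which a Cre recombinase marks podocytes. The vehicle group received PBS and has no day in its labels, and the injured group received adriamycin (ADR in the labels) and was taken at day 9. Chromatin was precipitated with the WT1 antibody sc-192. There were 3 vehicle libraries and 2 day 9 libraries, although the protocol speaks of 3 independent experiments for this strain, and 1 peak list stood for each group. No difference between the groups therefore had a replicate error, no test between groups was made, and the 95% Wilson intervals given with shares show the counting error alone, with nothing about differences between mice. Glomerular lists from other mice (BALB/cJ, wildtype, 7-8 weeks, PBS or ADR, 4 libraries each) and a list from reporter podocytes at day 14 after ADR (2 libraries) served to describe where the podocyte sites recurred.

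WT1 is a zinc-finger transcription factor that podocytes, the epithelial cells covering the glomerular capillaries, need for their identity and for the filtration barrier. It binds promoters and distal elements of genes of the slit diaphragm, the actin cytoskeleton and the basement membrane. Adriamycin (doxorubicin) damages podocytes and causes protein loss into the urine in mice, and it is a common model of podocyte injury.

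The vehicle list held peaks with a median width of 472 bp (quartiles 356 to 627), and the day 9 list 450 bp (337 to 603). The weakest −log10 q was 1.51 in the vehicle list and 1.52 in the day 9 list, so both reached to a similar significance. Library read totals were not used here, and the depth behind each list is therefore unknown. The labelled cell type was not checked against markers, since the lists measure no expression and were read without a gene annotation of their build, mm9. For the same reason sites are given by mm9 position, counted from 1, and not by gene. Fold enrichment is each peak's own value from the authors' caller and was ranked only within a list. Where the values of a site in different lists are printed side by side, each belongs to its own list, and no change was computed from them.

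Most vehicle sites had a peak at day 9, and the day 9 list held many further ones, nearly all of them of moderate or low enrichment. Of the vehicle peaks, 3037 (13.0%) had no day 9 peak, and of the day 9 peaks, 11513 (36.0%) had no vehicle peak. The full lists thus matched in 64.0% of day 9 and 87.0% of vehicle peaks. With the day 9 list cut to the vehicle length by caller p-value the shares were 76.1% and 76.4%, and lists of equal length give near-equal shares by construction when matching is nearly 1 to 1. The share without a match depended on strength, here the decile of fold enrichment in the peak's own list. In the strongest decile 57 of 3195 day 9 peaks (1.78%, interval 1.38 to 2.30) and 1 of 2341 vehicle peaks (0.0427%) were unmatched. In the weakest decile the shares were 45.4% at day 9 and 33.0% in vehicle. The vehicle share fell with every step in strength. The day 9 share did not, and was highest in the third decile, at 58.3%.

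**Figure D1:**
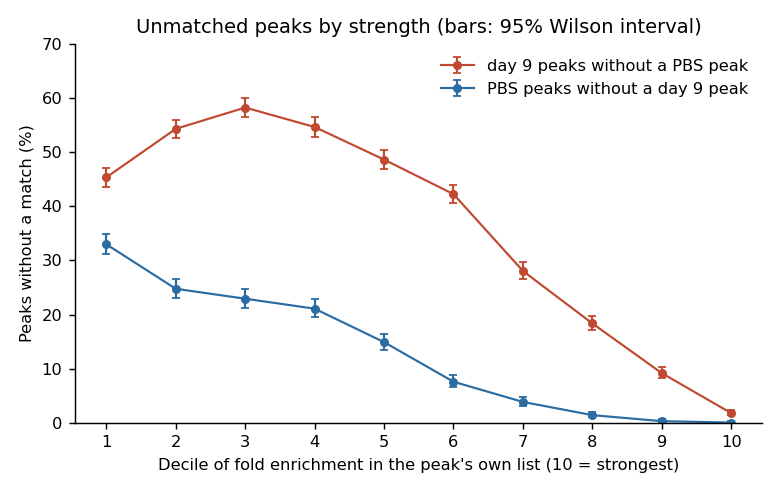
Share of peaks without an overlapping peak in the other podocyte list (y axis, %), by decile of fold enrichment within the peak's own list (x axis, 10 strongest). Points are shares and bars 95% Wilson intervals. Day 9 lies above vehicle in every decile, and both come close to 0 in the strongest.

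Unmatched day 9 peaks were not all marginal calls. A −log10 q of at least 10 was reached by 4964 of the 11513 (43.1%), against 84.7% of matched day 9 peaks. Unmatched vehicle peaks reached it in 23.1% of cases, against 76.4% of matched vehicle peaks. Unmatched peaks were narrower, with a median of 344 bp at day 9 against 528 bp for matched peaks. This held within each of the 10 deciles of fold enrichment, from 283 against 384 bp in the second decile to 644 against 750.5 bp in the tenth. Significance was not equal within deciles. The median −log10 q of unmatched peaks was the lower in each, with 5.34 against 11.5 in the second and 88.7 against 158.5 in the tenth. Near misses of the overlap rule were few. Only 101 unmatched day 9 peaks (0.877%) and 82 unmatched vehicle peaks (2.70%) ended within 100 bp of a peak in the other list.

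Sites present in both lists were compared in 19620 pairs in which each peak overlapped no other peak of the partner list. These held 96.0% of matched day 9 peaks. In 19561 pairs (99.7%) the peaks shared at least 50% of the shorter peak, and in 17954 (91.5%) at least 90%. Only 4 pairs overlapped by less than 50 bp. Few matches were peaks that merely touched at an edge.

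Binding summits lay close together in the 2 groups. The median distance between the vehicle and the day 9 summit was 28 bp (quartiles 12 to 56), and 226 pairs had the summit at the same base. The signed displacement had a median of 0 bp (quartiles -27 to 28), with 49.7% of day 9 summits to the right and 49.2% to the left of the vehicle summit. Summits lay within 50 bp of each other in 14016 pairs (71.4%) and more than 200 bp apart in 463 (2.36%). The day 9 summit fell inside the vehicle peak in 19401 pairs (98.9%). Strong sites had the closest summits. The median distance was 44 bp in the weakest decile of vehicle enrichment and 15 bp in the strongest, and the share beyond 200 bp was 5.64% and 0.443%.

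**Figure D2:**
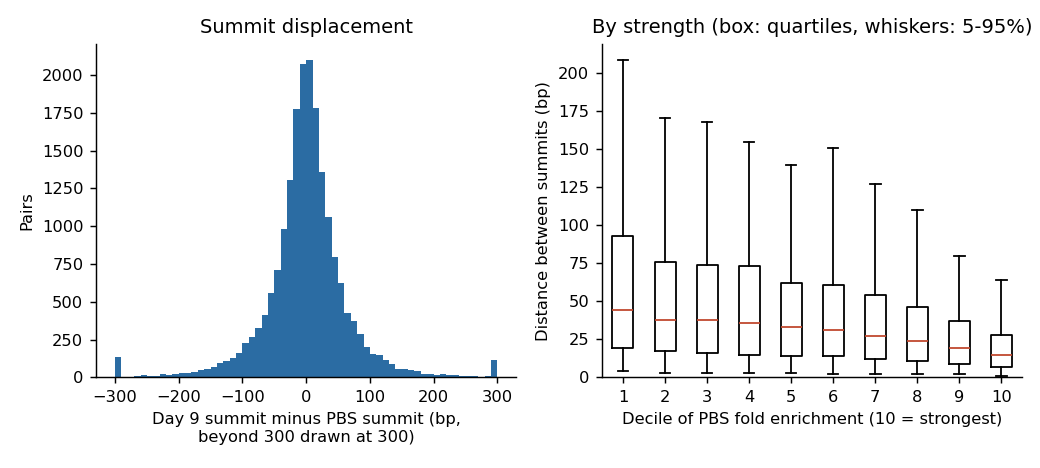
Left, number of pairs by day 9 summit minus vehicle summit (bp, bins of 10). Right, distance between summits (bp) by decile of vehicle fold enrichment, with boxes for quartiles, red lines for medians and whiskers for the 5th and 95th percentiles. Displacements centre on 0, and the median distance goes from 44 bp in the weakest decile to 15 bp in the strongest.

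Wide separation of summits was more frequent in broad peaks, though most such pairs were of middling width. Summits of overlapping peaks cannot lie further apart than the peaks extend, so that narrow pairs have less room for it. Summits lay more than 200 bp apart in 72 pairs (1.01%) whose wider peak was up to 500 bp, in 267 (2.38%) above 500 and up to 1000 bp and in 124 (9.76%) above 1000 bp. The pair with the widest separation was chr14:121435327-121437006, with 1234 bp between summits. Its day 9 peak was 1680 bp wide at 17.7-fold enrichment and its vehicle peak 1742 bp at 7.18-fold. At chr2:164280059-164282079 the summits lay 1021 bp apart, in a day 9 peak of 51.0-fold and a vehicle peak of 14.8-fold. The 5 pairs with the largest summit distance spanned 951 to 1234 bp between summits, were each at least 1628 bp wide in both lists and had a peak in all 3 other lists. The lists were read with 1 summit per peak, so that other maxima inside these broad peaks were not compared.

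Peak widths differed little between the groups. Paired peaks had a median of 527 bp at day 9 and 497 bp in vehicle, and the median difference within a pair was 17 bp (quartiles -57 to 102). The day 9 peak was the wider in 10985 pairs (56.0%, 55.3 to 56.7), the narrower in 8565 (43.7%) and of equal width in 70. A width at least 1.5-fold greater at day 9 was seen in 1744 pairs (8.89%), and 1.5-fold less in 895 (4.56%). Among pairs with a −log10 q of 10 or more in each list, the largest widening was at chr13:33056021-33057486, where the day 9 peak was 1466 bp and the vehicle peak 309 bp wide, with summits 10 bp apart and enrichments of 15.6-fold and 9.06-fold. At chr7:82514038-82515290 a peak of 1253 bp and 41.4-fold enrichment stood over a vehicle peak of 380 bp and 7.38-fold. The largest narrowing was at chr12:3807252-3807537, with 286 bp at day 9 and 1378 bp in vehicle. That site had no peak in the day 14 or the glomerular lists.

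Most pairs held a similar place in the order of enrichment. Rank was expressed as a percentile within the list, from 0 for the weakest to 100 for the strongest peak. In 14768 pairs (75.3%) the percentiles differed by less than 20 points. The day 9 percentile was at least 20 points higher in 3440 pairs (17.5%) and at least 20 points lower in 1412 (7.20%), with a median difference of 2.07 points. The imbalance depended on the scale of rank. When ranks were taken among the 19620 pairs alone, 2365 pairs (12.1%) were higher and 2204 (11.2%) lower, and the median difference was -0.716 points. When the day 9 list was cut to the length of the vehicle list by caller p-value, 1754 pairs were higher and 2775 lower of 17280, with a median of -2.58 points. The sign of the median shift thus changed with how rank was taken. The top of the order was largely shared. Of the 1962 pairs in the strongest decile of vehicle peaks, ranked among pairs, 1391 (70.9%) were also in the strongest decile at day 9. In the weakest decile the overlap was 1069 pairs (54.5%).

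**Figure D3:**
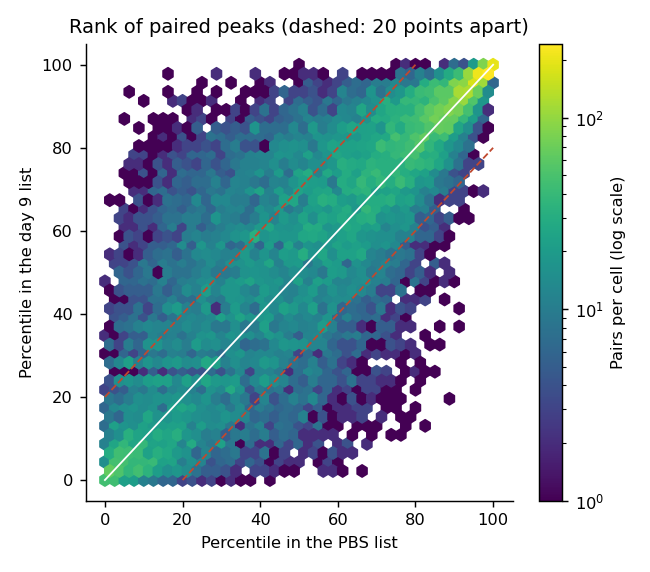
Percentile of fold enrichment in the vehicle list (x axis) and in the day 9 list (y axis) for the 19620 pairs, with the number of pairs per cell in colour on a log scale. Pairs crowd along the diagonal at the top right. More pairs lie above the upper dashed line (3440) than below the lower one (1412), against 2365 and 2204 with ranks among pairs alone.

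The strongest pairs had close summits, while their widths differed in either direction. At chr10:5165677-5166910 the day 9 peak had 122-fold enrichment and the vehicle peak 94.8-fold, both were 1234 bp wide, and their summits were 18 bp apart. At chr1:174366639-174367543 the day 9 peak ranked 7 in its list and the vehicle peak 3, with summits 11 bp apart. The site at chr3:51719826-51720753 was narrower at day 9, with 928 against 1303 bp, and its summits were 22 bp apart. The other pairs among the 5 strongest were chr1:62907070-62908033 and chr15:95039517-95040257, with summits 5 and 26 bp apart. Each of the 5 recurred in the day 14 list and both glomerular lists.

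Individual sites moved far in rank, with differences from -69.5 to 86.7 points over all pairs. Among pairs with a −log10 q of 10 or more in each list, the largest rise was at chr18:76170497-76171386, from percentile 12.2 in vehicle (3.73-fold) to 83.9 at day 9 (15.8-fold). The site at chrX:137045468-137046359 went from percentile 22.5 (4.49-fold) to 93.0 (26.0-fold), and that at chr4:86144362-86145196 from 22.5 (4.48-fold) to 91.2 (22.9-fold). All 5 sites with the largest rises had a peak in PBS glomeruli, so that each also had a peak in vehicle mice of the other strain. The 5 sites with the largest falls had one too, as did 90.8% of matched day 9 peaks with a −log10 q of 10 or more. At chr4:86144362-86145196 the PBS glomerular peak stood at percentile 93.1 of its list and the ADR glomerular peak at 93.9. At chr14:70603038-70603591, which went from percentile 8.39 to 73.7 in podocytes, the glomerular percentiles were 81.4 in PBS and 90.5 in ADR. At the largest rise, on chromosome 18, the PBS glomerular peak was at percentile 36.6 and ADR glomeruli had none. At the other 2 rises the percentiles were 78.9 and 78.4 on the X chromosome, and 73.9 and 91.6 at chr4:59328074-59328903, in PBS and ADR.

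Among the same pairs the largest fall was at chr12:103529885-103530379, from percentile 77.4 in vehicle (10.7-fold) to 14.2 at day 9 (4.21-fold), with PBS and ADR glomerular peaks at percentiles 76.7 and 84.1. The next falls had lower glomerular percentiles. These were 45.5 in PBS and 9.08 in ADR at chr11:69392650-69393448, 38.2 and 41.4 at chr18:7868515-7869193, and 39.6 and 66.0 at chr2:116946175-116947095. The remaining one, chr7:140315255-140316062, was at 43.4 in PBS and had no ADR peak. There enrichment was 10.0-fold in vehicle and 4.39-fold at day 9, and the summit lay 381 bp away. Rank and width moved together. The day 9 peak was the wider in 89.2% of pairs that rose by 20 points or more, in 52.4% of those that moved by less and in 12.3% of those that fell by as much. Width and enrichment are drawn from the same pileup and are not independent measures.

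Splitting and merging of peaks were rare. Of the vehicle peaks, 297 were overlapped by more than 1 day 9 peak, 286 of them by 2 and 11 by 3, and 235 day 9 peaks overlapped more than 1 vehicle peak. The strongest vehicle peak that was divided in 3 was chr9:77756965-77759350, 2386 bp wide at 47.0-fold. At day 9 it was covered by peaks of 887, 1004 and 432 bp, at 37.1-fold, 26.5-fold and 4.41-fold. The next were chr15:68089724-68091543 (22.7-fold in vehicle) and chr1:13362305-13364664 (20.3-fold).

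The unmatched day 9 peaks lay at all distances from vehicle peaks. The median distance from edge to edge to the nearest vehicle peak was 11328 bp (quartiles 3123 to 36212). Within 1 kb of a vehicle peak, here called beside, were 1289 (11.2%, 10.6 to 11.8). Between 1 and 10 kb, here called near, were 4134 (35.9%). Beyond 10 kb, here called a new locus, were 6090 (52.9%, 52.0 to 53.8). More than 100 kb away were 1138 (9.88%), and more than 500 kb away 155. The vehicle peaks themselves had a median distance of 8790 bp to their nearest neighbour in the list, with 18.8% within 1 kb and 47.5% beyond 10 kb. Matched day 9 peaks had 16.8% and 47.3% at the same limits, measured to the nearest vehicle peak that they did not overlap. Measured from summit to summit, 6.59% of unmatched day 9 peaks were within 1 kb. Where PBS glomerular peaks were also counted as old sites, 30.7% of unmatched day 9 peaks were at new loci and 42.6% within 1 kb. The 42.6% include the 33.4% that overlapped a PBS glomerular peak and so lay on such a site, not beside it.

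**Figure D4:**
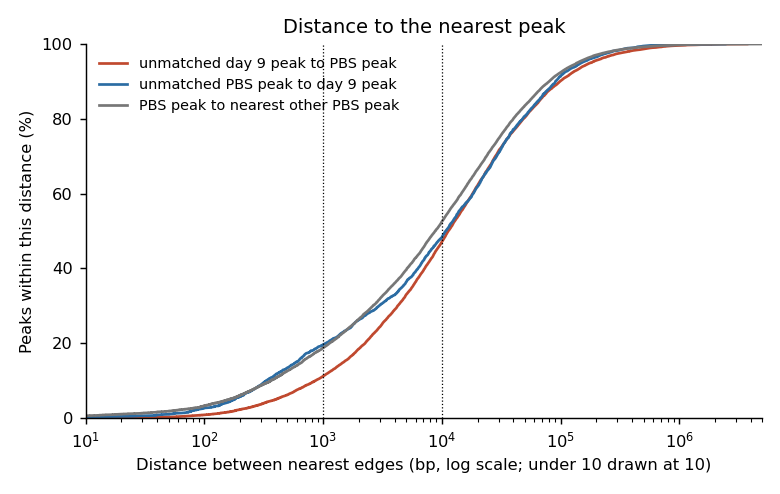
Cumulative share of peaks (y axis, %) within a given distance of the nearest peak (x axis, bp, log scale), with dotted lines at 1 and 10 kb. Unmatched day 9 peaks (red) reach 11.2% at 1 kb, where unmatched vehicle peaks (blue) and the spacing among vehicle peaks (grey) reach 19.6% and 18.8%.

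Peaks beside an old site mostly had lower enrichment than that site, and unmatched day 9 peaks of the other distance classes were similarly weak. The vehicle neighbour had a day 9 peak of its own in 1181 of the 1289 cases (91.6%, 90.0 to 93.0), against 87.0% of all vehicle peaks. The old site thus mostly still had a peak, as most vehicle sites did. In 1006 of these 1181 (85.2%) the neighbour's own day 9 peak had the higher enrichment of the pair. The medians were 10.8-fold for the old site and 5.15-fold for the flanking one. They lay to the left of the old site in 622 cases (48.3%). The strongest was chr10:98474469-98475138, at 23.2-fold and 294 bp from its vehicle neighbour (14.7-fold in vehicle), with no peak in the other 3 lists. The next was chr7:72522464-72522967, at 20.7-fold and 691 bp from a neighbour of 22.9-fold in vehicle. The site at chr13:109388660-109389363 (19.2-fold, 376 bp away) had a peak in all 3 other lists. Only 1 peak of this class was in the strongest decile of the day 9 list.

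Peaks near an old site included the strongest unmatched one, chr7:117260132-117260913, at 50.2-fold and rank 486 at day 9. Its nearest vehicle peak was 4247 bp away, 1195 bp wide and of 4.89-fold enrichment. Among the other lists it had a peak in ADR glomeruli alone, at percentile 54.2. The sites at chr3:9756963-9757990 (28.2-fold) and chr10:37177253-37177828 (27.5-fold) lay 4359 and 1684 bp from a vehicle peak. At chr2:77633476-77634278 (27.2-fold, 5468 bp away) the vehicle neighbour, at 8.09-fold, had no day 9 peak, and the site recurred at day 14 but not in glomeruli. Such a change of partner was the exception. The nearest vehicle peak had a day 9 match for 3796 of the 4134 peaks of the class (91.8%), against 87.0% of all vehicle peaks.

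New loci held 38 of the 57 unmatched peaks in the strongest decile, against 18 near and 1 beside an old site. Over all unmatched day 9 peaks the classes held 52.9%, 35.9% and 11.2% in the same order. The most isolated of the 5 strongest new loci was chr15:63195928-63196618, at 47.6-fold and 632.648 kb from any vehicle podocyte peak. It had peaks at day 14 (7.36-fold) and in PBS (8.97-fold) and ADR glomeruli (10.8-fold). The site at chr1:128703038-128703686 (42.5-fold, 17.028 kb away) had a peak in the same 3 lists. The site at chr10:69778251-69778925 (35.5-fold, 13.449 kb away) had none. At chr7:109627696-109628673 (35.1-fold, 85.139 kb away) both the day 14 list and the ADR glomerular list had a peak, and the PBS glomerular list had none. Median enrichment of the classes was nevertheless close, at 5.09-fold beside, 5.43-fold near and 5.59-fold at new loci, against 8.68-fold for matched day 9 peaks.

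The glomerular lists, from other animals, had no part in choosing the sites and showed how many recurred. The split into matched and unmatched did rest on a vehicle list, that of podocytes, which bears on overlap with PBS glomeruli. Of the unmatched day 9 peaks, 3843 (33.4%, 32.5 to 34.2) overlapped a PBS glomerular peak and 2006 (17.4%, 16.7 to 18.1) an ADR glomerular peak, against 86.3% and 53.5% of the matched. The 3 distance classes were close in this. PBS glomeruli shared 35.4% of peaks beside an old site, 34.7% of those near and 32.1% of those at new loci, and ADR glomeruli 17.8%, 16.9% and 17.7%. In no other list were 6739 unmatched peaks (58.5%), against 10.9% of the matched.

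**Figure D5:**
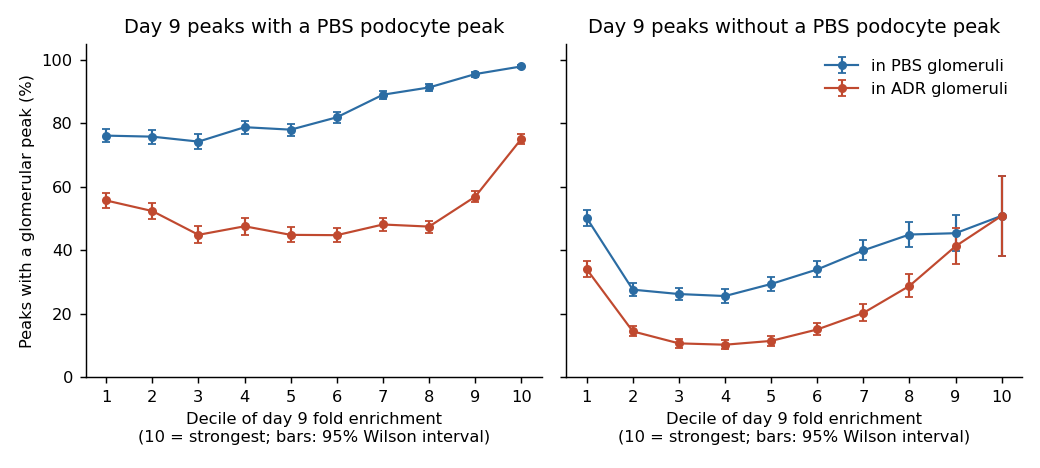
Share of day 9 peaks with an overlapping glomerular peak (y axis, %), by decile of day 9 fold enrichment (x axis, 10 strongest), for matched (left) and unmatched (right) peaks. Bars are 95% Wilson intervals. PBS glomeruli lie above ADR glomeruli everywhere except in the strongest decile of unmatched peaks, where both are at 50.9% of 57 peaks.

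The balance between the glomerular lists differed between matched and unmatched sites. Among sites with a peak in either glomerular list, those with one in ADR glomeruli alone made up 830 of 4673 unmatched day 9 peaks (17.8%, 16.7 to 18.9). They made up 424 of 18067 matched day 9 peaks (2.35%, 2.14 to 2.58) and 132 of 1402 unmatched vehicle peaks (9.42%, 8.00 to 11.1). Sites in PBS glomeruli alone were more numerous in each group, at 2667, 7125 and 830 of the same totals. Of the matched day 9 peaks, 86.3% had a PBS glomerular peak, which by definition leaves little room for ADR glomeruli alone. Unmatched day 9 peaks were chosen for lacking a vehicle podocyte peak, and PBS glomeruli are vehicle samples too. The matching rule thus bears on this balance, and how far was not tested. By distance class the share of unmatched day 9 peaks in ADR glomeruli alone was 17.5% beside, 16.6% near and 18.7% at new loci. The ADR glomerular list was the shorter, with 16634 against 29082 peaks. With −log10 q held to 10 or more, the shares for unmatched day 9, matched day 9 and unmatched vehicle peaks were 19.4%, 1.71% and 9.07%. By decile of day 9 enrichment, the share in ADR glomeruli alone was at most 22.6% of unmatched peaks in the first 8 deciles, then 32.8% in the ninth and 34.1% (15 of 44) in the tenth. In matched peaks it went from 5.14% in the weakest to 0.421% in the strongest decile. The intervals given with these shares are not a test. They show counting error and not variation between animals.

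The 57 unmatched peaks of the strongest decile recurred in PBS and in ADR glomeruli in equal number, 29 each. In glomeruli, 14 had a peak with both treatments, 15 with PBS alone, 15 with ADR alone and 13 with neither, and 10 were in no other list at all. At day 14 a peak was present at 23 of the 57 (40.4%, 28.6 to 53.3), against 93.1% of the matched peaks in the same decile. Within this decile the unmatched peaks were the less significant, with a median −log10 q of 88.7 against 158.5 at day 9. Over all strengths a day 14 peak was present at 2.14% of unmatched and 30.9% of matched day 9 peaks. The day 14 list was the shortest of the series, with 6694 peaks. Day 14 peaks were at 10 of the 15 sites with ADR glomeruli alone, at 2 of the 15 with PBS glomeruli alone, at 8 of the 14 with both and at 3 of the 13 with neither. Of the sites with ADR glomeruli alone, 12 were new loci and 3 near an old site, against 38 and 18 of all 57. The strongest of these, chr7:117260132-117260913 at 50.2-fold, had no day 14 peak. The following sites of this kind were picked for their values, and each had a day 14 peak. The site at chr15:102669954-102670537 had 31.1-fold enrichment at day 9, 12.1-fold at day 14 and 8.72-fold in ADR glomeruli, and was 92.186 kb from a vehicle podocyte peak. The site at chr9:73800062-73800581 had 27.8-fold at day 9, 8.30-fold at day 14 and 19.8-fold in ADR glomeruli, where it stood at percentile 94.9. The site at chr3:62253657-62254272 had 35.0-fold, 6.66-fold and 7.14-fold in the same order. Sites of this kind have no peak in either vehicle list by definition.

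Unmatched day 9 peaks were spread over the genome. Most 100 kb windows that held any held exactly 1, and these windows accounted for 3715 of the 11513 peaks. Of the windows of 100 kb, 6366 held the summit of at least 1 such peak, 3715 exactly 1 and 293 at least 5. Vehicle summits lay in 9407 windows, with exactly 1 in 4123 and at least 5 in 1253, but there were 23402 of them against 11513 unmatched day 9 peaks. Of the 6366 windows with an unmatched day 9 peak, 1787 held no vehicle summit, and 2359 unmatched peaks lay there. The window chr2:60700001-60800000 held 14 unmatched among 22 day 9 peaks, beside 9 vehicle peaks, and chr10:6500001-6600000 held 14 among 18, beside 5. The unmatched peaks had medians of 5.59-fold and 5.16-fold and reached 10.5-fold and 11.8-fold. The window chr9:48500001-48600000 held 12 unmatched among 14 day 9 peaks, beside 2 vehicle peaks. Its unmatched peaks had a median of 4.78-fold and 1 of them reached 31.8-fold. It held more ADR than PBS glomerular peaks, 8 against 5. The windows named on chromosomes 2 and 10 went the other way, with 7 against 10 and 2 against 7. So did chr8:34900001-35000000, also with 12 unmatched day 9 peaks, at 12 against 16. Across the 19 autosomes the unmatched share of day 9 peaks ran from 29.7% on chromosome 11 to 40.2% on chromosome 13, with a median of 36.2%, and it was 34.0% on the X chromosome.

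Vehicle sites without a day 9 peak were fewer than unmatched day 9 peaks, and the vehicle list was the shorter, with 23402 against 31949 peaks. Within the vehicle list they were weak, at a median percentile of 23.2 against 56.0 for matched vehicle peaks. The strongest unmatched vehicle peak, chr1:174348853-174349483, had 27.2-fold enrichment, rank 854, and no peak in any other list. It lay 17.177 kb before chr1:174366661-174367559, the vehicle peak of rank 3, which was kept at day 9. It was the 1 unmatched peak in the strongest vehicle decile. The next were chr7:73789539-73789987 (14.7-fold) and chr13:45992879-45993405 (14.3-fold), both with a PBS glomerular peak and none in ADR glomeruli. Within 1 kb of a day 9 peak were 596 of the 3037 (19.6%, 18.3 to 21.1), and 1572 (51.8%) were more than 10 kb away. For 491 of the 596 (82.4%) the day 9 neighbour had a vehicle match of its own, against 64.0% of all day 9 peaks. At chr12:16854132-16854616 (11.6-fold in vehicle) it did not, and a day 9 peak of 5.90-fold lay 489 bp away. PBS glomeruli shared 1270 of the 3037 (41.8%), ADR glomeruli 572 (18.8%) and day 14 podocytes 6 (0.198%). For matched vehicle peaks these shares were 86.5%, 53.7% and 31.0%. The day 14 list held only 6694 peaks.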

How the data were processed

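The submitters' processing notes name Bowtie 0.12.7, MACS2 and the mm9 build. For the calling cutoff, the control and the pooling of libraries, details were not given in the sources used here. Each group has 1 narrowPeak list deposited by the authors, in which fold enrichment is a ratio over the caller's background. The −log10 p and −log10 q values and the integer score are also the authors' deposited values. The score entered no result.

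Overlap, nearest-edge distance, percentiles and medians were computed with Python 3.11.15, numpy 2.4.6 and pandas 2.3.3, and figures with matplotlib 3.10.9. The matching and distance code was tested on simulated lists. Named sites were among the 5 leading ones by fold enrichment, rank change, width ratio, summit distance or count, as described beside each. Those named in the strongest decile with ADR glomeruli alone were instead picked for their values. Pairs named for a change had to reach a −log10 q of 10 at day 9 and in vehicle. The members and the site rules were chosen with earlier results of these data known. Alternatives were other overlap rules, stricter q, lists of equal length, every overlapping pair, other rank scales and other distance limits. Gene assignment, genomic location and WT1 motifs were not analysed here, because the reference tables in hand were of GRCm38 and their positions were not used. The full strain name of the reporter mice is not reported here.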

Additional observations from a re-analysis of the deposited data

How the results depend on the processing

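Of 56 values recomputed with other settings, 23 stayed within the counting interval or 1.5 times the count, 31 moved beyond it and 2 changed sign. The causes of the moves were not tested beyond what each alternative changes by construction. Both changes of sign concerned the median rank difference of pairs, 2.07 points in the full lists, -0.716 points with ranks among the pairs alone (2204 pairs lower by 20 points or more) and -2.58 points with the day 9 list cut to the vehicle length (1754 pairs higher, 2775 lower). Ranks by caller p-value gave 4.20 points.

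Match shares for day 9 and vehicle peaks, 64.0% and 87.0%, became 61.6% and 84.1% with summits within 200 bp, 65.0% and 88.5% with a −log10 q of at least 10, and 76.1% and 76.4% with lists of equal length. With that stricter q the median width difference was 15 bp, the median summit distance 23 bp and the share of summits beyond 200 bp 1.60%. Over every overlapping pair, the width difference was 15 bp, 54.9% of day 9 peaks were wider, 3.88% of summits lay beyond 200 bp and the median rank difference was 1.82 points. With widths up to 1000 bp, 1.85% of summits lay beyond 200 bp.

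Measured from summit to summit, 53.9% of unmatched day 9 peaks were at new loci and 6.59% beside an old site, and 14.2% of unmatched vehicle peaks were beside a day 9 peak. Limits of 2 kb for beside and 50 kb for a new locus gave 18.5% and 19.6%. With PBS glomerular peaks added to the old sites, 30.7% of unmatched day 9 peaks were at new loci and 42.6% within 1 kb. The 42.6% include the 33.4% that overlapped a PBS glomerular peak. With summits within 200 bp, 32.4% of unmatched day 9 peaks had a PBS glomerular peak, and 3.16% of matched day 9 peaks in either glomerular list were in ADR glomeruli alone. With the stricter q, 43.7% of unmatched day 9 peaks had a PBS and 25.9% an ADR glomerular peak, and the shares in ADR glomeruli alone were 19.4% of unmatched and 1.71% of matched peaks.

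No paired analysis was possible because 1 list stands for each group, and for the same reason libraries were not left out in turn. The alternatives for gene lists, genomic location and motifs were not run.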
